A study of Mus musculus with 12 samples.

Results

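The liver makes and uses most of the body's S-adenosylmethionine, the methyl donor of the cell, and 9 of the enzymes that handle methionine, choline and homocysteine there were followed at the level of their mRNA. The members were Mat1a, Gnmt, Ahcy, Bhmt, Bhmt2, Cbs, Cth, Pemt and Chdh. They were taken by symbol from the processed gene table, and all 9 were found among its 41128 genes. RNA sequencing had been done on the livers of 12 C57BL/6 mice, 6 male and 6 female by their labels, with 1 library per mouse and 3 libraries in each of 4 groups. All mice were born germ-free, lived in sterile isolators until weaning at day 21 and were killed at 6 weeks of age. Germ-free (GF) mice stayed in the isolators, whereas conventionalized (CV) mice, which were littermates of GF mice, spent the last 3 weeks outside them on soiled bedding taken from other cages, so that they acquired microbes of the facility. Which mice shared a litter or a cage was not given, so that an effect of the cage cannot be told apart from that of the condition. The unit is a normalized read, that is, a library's reads of a gene divided by 1 size factor of that library.

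Methionine is activated to S-adenosylmethionine by methionine adenosyltransferase, whose liver form is encoded by Mat1a. Methyltransferases then use it: glycine N-methyltransferase (Gnmt) methylates glycine and so disposes of surplus methyl groups, and phosphatidylethanolamine N-methyltransferase (Pemt) makes phosphatidylcholine. The product, S-adenosylhomocysteine, is split to homocysteine by Ahcy. Homocysteine is either returned to methionine, with the methyl group of betaine by Bhmt and in a related reaction by Bhmt2, or passed on to cystathionine by Cbs and from there to cysteine by Cth. Chdh supplies betaine by oxidizing choline in mitochondria. Hepatocytes are the main site of most of these steps, and Bhmt is known as an abundant protein of the liver.

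By the GENCODE annotation of build GRCm38, all 9 are protein-coding. Mat1a (ENSMUSG00000037798) lies on chromosome 14 from 41105035 to 41124412 and Chdh (ENSMUSG00000015970) on the same chromosome from 30009023 to 30040527, both on the plus strand. The other 7 lie on the minus strand. Gnmt (ENSMUSG00000002769) spans chromosome 17 from 46725664 to 46729168 and Cbs (ENSMUSG00000024039) the same chromosome from 31608894 to 31637238. Bhmt (ENSMUSG00000074768) spans chromosome 13 from 93616675 to 93637961, and its relative Bhmt2 (ENSMUSG00000042118) follows from 93655720 to 93674302. Ahcy (ENSMUSG00000027597) is on chromosome 2 from 155059310 to 155074497, Cth (ENSMUSG00000028179) on chromosome 3 from 157894248 to 157925077, and Pemt (ENSMUSG00000000301) on chromosome 11 from 59970614 to 60046489. Exons of Bhmt and of Chdh overlap exons on the opposite strand, but the overlapping genes had at most 48 and 41 reads in any library. The kit marks strand, and whether the counting used it is not given in the sources used here.

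RefSeq promoters of build GRCm38.p6 were at hand for 7 of the 9 genes, all but Mat1a and Cth. The 250 bases before the start are shown for Pemt and Gnmt, the members with the largest condition effects, and for Bhmt and Bhmt2, which are neighbours and relatives. Capitals mark matches, on either strand, to the so-called TATA box with the letters TATAAA, to the CCAAT box, to the GC box with the letters GGGCGG and to AGGTCA, which is the core motif of many nuclear receptors. No match overlaps another in these windows. The windows are chr11:60040189-60040438 for Pemt, which is the start farther upstream of 2 listed, chr17:46729166-46729415 for Gnmt, chr13:93637759-93638008 for Bhmt and chr13:93674303-93674552 for Bhmt2, all on the minus strand and read 5′ to 3′ toward the gene. The Pemt window lies inside the GENCODE span of Pemt, whose 5′ end at 60046489 is farther upstream and is not shown. Most of the Bhmt window also lies inside the GENCODE span of Bhmt, whose 5′ end is at 93637961. The Gnmt window overlaps the 5′ end of Gnmt at 46729168 by a few bases.
Pemt: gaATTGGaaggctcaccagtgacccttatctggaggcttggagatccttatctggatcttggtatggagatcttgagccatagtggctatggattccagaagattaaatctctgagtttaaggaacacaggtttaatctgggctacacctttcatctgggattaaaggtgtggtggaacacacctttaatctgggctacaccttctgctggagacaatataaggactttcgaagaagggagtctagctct
Gnmt: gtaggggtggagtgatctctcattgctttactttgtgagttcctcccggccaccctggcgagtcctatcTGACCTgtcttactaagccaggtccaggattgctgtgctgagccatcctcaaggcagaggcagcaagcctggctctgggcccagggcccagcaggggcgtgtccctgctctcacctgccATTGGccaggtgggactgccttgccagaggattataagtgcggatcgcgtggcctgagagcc
Bhmt: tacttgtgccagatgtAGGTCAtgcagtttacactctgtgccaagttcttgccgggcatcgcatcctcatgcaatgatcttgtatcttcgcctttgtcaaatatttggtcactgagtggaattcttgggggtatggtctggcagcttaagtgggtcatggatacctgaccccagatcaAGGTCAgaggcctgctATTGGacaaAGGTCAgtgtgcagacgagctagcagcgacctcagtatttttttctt
Bhmt2: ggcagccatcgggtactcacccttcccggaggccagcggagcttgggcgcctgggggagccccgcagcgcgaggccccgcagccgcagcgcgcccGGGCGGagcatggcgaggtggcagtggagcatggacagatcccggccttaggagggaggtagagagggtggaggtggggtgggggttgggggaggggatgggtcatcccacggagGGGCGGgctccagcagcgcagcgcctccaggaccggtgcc

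The neighbours Bhmt and Bhmt2 did not look alike here. The Bhmt window had a GC content of 48.0% with 5 CpG, 1 CCAAT box and 3 AGGTCA matches, whereas the Bhmt2 window had 74.0% with 20 CpG and 2 GC boxes and none of the other motifs. Among 32851 mouse promoters of this length, the median GC content was 52.4% and the median number of CpG was 6. The Gnmt window (60.4% GC, 6 CpG) held 1 CCAAT box and 1 AGGTCA match, and the Pemt window (44.8% GC, 1 CpG) held 1 CCAAT box. Of all promoters, 33.8% held at least 1 CCAAT, 14.0% AGGTCA, 32.7% GGGCGG and 12.4% TATAAA, so a single match is not rare. How many promoters held 3 AGGTCA matches or 2 GC boxes was not counted. A match describes letters and not a bound site.

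The libraries held 5993619 to 15290835 reads, and between 124 (Chdh) and 50626 (Mat1a) of them fell on a member. In 35 of the 36 sets of 3 libraries the SD of a member between mice was larger than its counting error, which was 0.558 to 7.94% of the level. The exception was Chdh in GF females, with an SD of 1.54% of the mean and a counting error of 7.78%. Some properties of the libraries moved with the condition. The share of reads in 7 abundant loci (Lars2, mt-Rnr1, mt-Rnr2, Mir6236, Gm15564, Gm23935 and Gm42418) was 41.8 to 69.4% in GF and 5.39 to 21.9% in CV livers, and 95.3% of its variance lay between the 4 groups. Of the 8 hepatocyte markers, 5 were higher in CV and 0 lower over both sexes, with a median log2 difference of 1.09. Their summed level ranged from 213008 to 476848 in GF males, from 415618 to 574117 in CV males, from 110330.2 to 303163 in GF females and from 488926 to 650976 normalized reads in CV females, and none of the 8 was at 0 in any group. Blood markers were lower in CV in 4 of 5 cases and lymphocyte markers in 4 of the 4 with enough reads of 7 listed. Over all genes, the same test called 32.3% higher and 28.7% lower. The 4 kidney markers, of another organ rich in several of these enzymes, were at 0 in every library. Of 5 markers of the exocrine pancreas, 1 had enough reads for the test, Cela1, which was higher in CV over both sexes (log2 difference 1.30 ± 0.25, limma adjusted p = 2.79e-04). Their summed level was 34.7 to 71.8 normalized reads in GF and 167 to 225 in CV females and 115 to 291 in GF and 228 to 355 in CV males, with 2 to 4 of the 5 at 0 in each group, and the part of such cells in the results was not tested. The library labelled CV male 3 had 0 reads on the Y chromosome among 8890529 and an Xist level of 2382 normalized reads, against at most 21.3 in the other male-labelled libraries, and the condition effects, the interaction and the ratios are therefore also given without it. The fits under other scalings include it.

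To ask how the presence of microbes relates to this pathway, CV and GF livers were compared over both sexes and within each. All 9 mRNAs were higher in CV livers over both sexes (limma with Benjamini-Hochberg adjustment over 11782 genes, threshold 0.05), and all 9 also when the library labelled CV male 3 was left out (background then 60.2% called). The main count has to be read against a background in which 61.1% of all genes tested were called and 32.3% were called higher. The median log2 difference of the members was 0.69, against 0.07 for all genes. Pemt differed most, by 2.08 ± 0.26 (SE) on the log2 scale (adjusted p = 6.22e-06), and Gnmt by 1.58 ± 0.26 (adjusted p = 8.82e-05), whereas the other 7 differed by 0.64 to 1.01. In females all 9 were higher in CV (background 55.8% called, 29.8% called higher), and in males only Pemt and Gnmt were (background 29.5% called, 14.1% called higher), with or without the library labelled CV male 3 (background 25.2% without it). Fewer cells of a type and less RNA per cell cannot be told apart in whole liver.

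**Figure D1:**
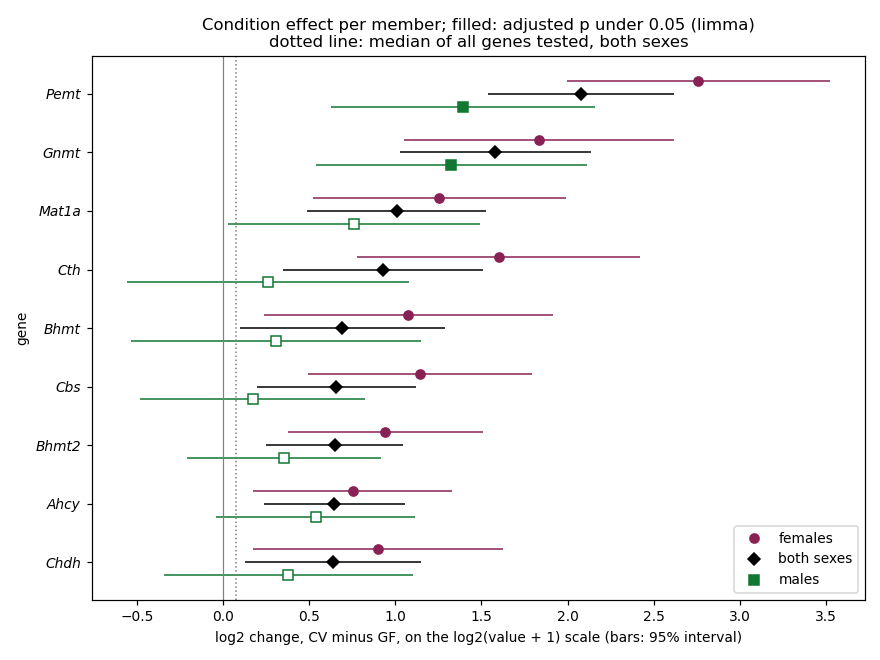
Log2 difference, CV minus GF, of each member on the log2(value + 1) scale in females (circles), males (squares) and both sexes (diamonds), with 95% intervals from limma. Filled symbols passed an adjusted p of 0.05, and the dotted line is the median of all genes over both sexes (0.07), to the left of every point.

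Mat1a makes S-adenosylmethionine. Its level was 9636, 6896 and 6243 normalized reads in the GF male livers and 17653, 8423 and 13556 in the CV male livers. In females it was 7134, 9592 and 6845 in GF and 21294, 17719.6 and 16914 in CV. CV lay above GF in females without overlap, whereas the second CV male lay among the GF males. The log2 difference was 1.01 ± 0.25 over both sexes (limma adjusted p = 0.00207), 1.26 in females (adjusted p = 0.00586) and 0.76 in males (adjusted p = 0.108). Without the second CV male the male difference was 1.05 (adjusted p = 0.0433, with 27.6% of all genes called).

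Gnmt, which takes up surplus methyl groups, had 4001, 3664 and 5509.9 normalized reads in GF males and 17365, 10218 and 7182 in CV males. GF females had 2023, 3032 and 4012, and CV females 12746, 11526 and 7594. The conditions did not overlap in either sex. Over both sexes the level was 2.99 times as high in CV as in GF (95% interval 2.04 to 4.39). As a log2 difference this was 1.83 ± 0.37 in females (limma adjusted p = 6.42e-04) and 1.33 ± 0.37 in males (adjusted p = 0.0152). The call in males was lost without GF male 1 (1.27, adjusted p = 0.0601) or without CV male 1 (0.99, adjusted p = 0.0582).

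Pemt, the methyltransferase of phosphatidylcholine synthesis, showed the widest gap. GF males held 1319.9, 3169 and 2331 normalized reads and CV males 6002, 4621 and 6372. The GF females held 1029.5, 1801 and 723, and the CV females 6128, 8175 and 8329. Every CV library was above every GF library, across the sexes as well as within them. The level in CV was 4.22 times that in GF over both sexes (95% interval 2.90 to 6.13), 6.77 times in females (3.99 to 11.5) and 2.63 times in males (1.55 to 4.46). The log2 difference was 2.76 ± 0.36 in females (limma adjusted p = 2.21e-05) and 1.39 ± 0.36 in males (adjusted p = 0.0107). Without GF male 1, whose level was the lowest of the GF males, the male difference was 1.05 (adjusted p = 0.0689), and when the library labelled CV male 3 was left out it was 1.30 (adjusted p = 0.0297). Over both sexes, 98.7% of all genes tested had a lower log2 difference than Pemt.

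Ahcy, which removes S-adenosylhomocysteine, had a narrow range in GF males (2124, 2319.6 and 2185 normalized reads), and CV males held 4749.6, 2715 and 2557. In females, GF livers held 1420.5, 1508 and 2061 and CV livers 2888, 2733 and 2678. The conditions did not overlap in either sex, but the first CV male stood far above the other CV livers. CV exceeded GF by a log2 difference of 0.65 ± 0.19 over both sexes (limma adjusted p = 0.00869), 0.75 in females (adjusted p = 0.0278) and 0.54 in males (adjusted p = 0.147). In females, leaving out GF 1, GF 2 or any of the 3 CV libraries moved the adjusted p to between 0.0596 and 0.103.

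Bhmt returns homocysteine to methionine with the methyl group of betaine. In males its level was 5569.6, 7119.8 and 6965 normalized reads in GF and 14964, 7831 and 4477 in CV. In females it was 1944, 2479 and 1595 in GF and 2783, 6237 and 4156 in CV. The CV males thus spread on both sides of the GF males, and the lowest of them was the library labelled CV male 3. The log2 difference was 0.69 ± 0.28 over both sexes (limma adjusted p = 0.0421), 1.08 ± 0.40 in females (adjusted p = 0.0299) and 0.31 ± 0.40 in males (adjusted p = 0.583). Without the library labelled CV male 3 the values were 0.90 over both sexes (adjusted p = 0.00702) and 0.73 in males (adjusted p = 0.175). The call over both sexes was otherwise fragile: it was lost when any of 9 of the 12 libraries was left out, with log2 differences of 0.47 to 0.72 and adjusted p-values from 0.0501 to 0.124, and remained without GF female 2, CV female 1 or the library labelled CV male 3. The call in females was lost without GF 1, GF 3, CV 2 or CV 3 (0.78 to 1.08, adjusted p from 0.0694 to 0.151).

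Bhmt2, the neighbour and relative of Bhmt, varied less. GF males had 1057, 974 and 880.1 normalized reads and CV males 1934, 946 and 1038. GF females had 826, 829.9 and 698, and CV females 1662, 1500.0 and 1365. Only CV male 1 exceeded all GF males, whereas all CV females lay above all GF females. On the log2 scale the difference was 0.65 ± 0.19 over both sexes (limma adjusted p = 0.00708), 0.94 in females (adjusted p = 0.00682) and 0.36 in males (adjusted p = 0.328).

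Chdh, which makes betaine from choline, was the least abundant member. GF males held 483, 258 and 320.3 normalized reads and CV males 876, 328 and 306, whereas the GF females were nearly equal at 338, 329.8 and 339 and the CV females had 763, 562 and 576. The males overlapped and the females did not. Its log2 difference between conditions was 0.64 ± 0.24 over both sexes (limma adjusted p = 0.0304), 0.90 in females (adjusted p = 0.0343) and 0.38 in males (adjusted p = 0.42). The call over both sexes was lost without GF male 2, GF male 3, GF female 1, CV male 1 or CV female 1 (0.40 to 0.64, adjusted p from 0.0529 to 0.0752), and the call in females without any of the 6 female libraries (0.76 to 0.98, adjusted p from 0.0541 to 0.12).

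Cbs commits homocysteine to cysteine synthesis. Its level was 2004, 1746 and 1576 normalized reads in GF males and 3462, 1325 and 1718 in CV males. GF females had 1266, 1420.4 and 1438, and CV females 3523, 2579.5 and 3087. The female groups lay far apart, whereas 1 of the 3 CV males was above and 1 below all GF males. The log2 difference was 0.66 ± 0.22 over both sexes (limma adjusted p = 0.0152), 1.15 ± 0.31 in females (adjusted p = 0.0049) and 0.17 ± 0.31 in males (adjusted p = 0.70).

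Cth completes the step from cystathionine to cysteine and can release hydrogen sulfide. GF males had 1434, 771 and 700.1 normalized reads and CV males 2242, 779 and 762. The GF females had 235, 338 and 416, and the CV females 1250.0, 905 and 820.1. The CV females reached the range of the males of either condition, from which all GF females stood below. On the log2 scale CV minus GF was 0.93 ± 0.27 over both sexes (limma adjusted p = 0.00773), 1.60 ± 0.39 in females (adjusted p = 0.00242) and 0.26 ± 0.39 in males (adjusted p = 0.637).

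**Figure D2:**
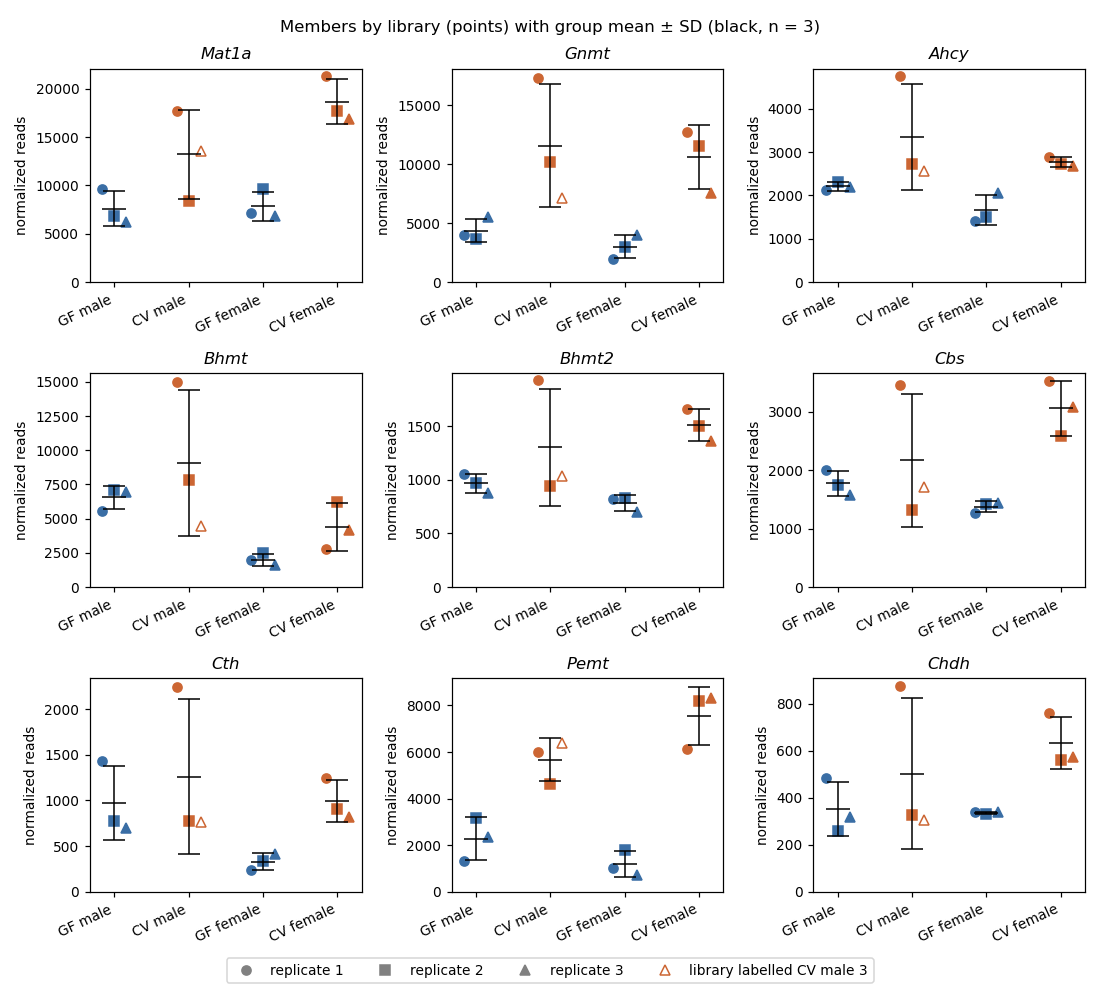
Normalized reads of each member in each of the 12 livers, with the group mean ± SD (n = 3, black) and the library labelled CV male 3 drawn open. In females the CV points lie above the GF points in all 9 panels, and in males in those of Gnmt, Ahcy and Pemt, with CV male 1 the highest male in 8 panels.

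In counts, all CV females lay above all GF females for 9 of 9 members, against 34% of all genes tested, and all CV males above all GF males for 3 of 9 (Gnmt, Ahcy and Pemt), against 22%. Without the library labelled CV male 3 the second count was 4, with Bhmt added, against 26.3%. Leaving out that library moved the male log2 difference from 0.38 to 0.65 for Chdh, from 0.26 to 0.53 for Cth, from 0.17 to 0.28 for Cbs, from 0.36 to 0.48 for Bhmt2, from 0.54 to 0.70 for Ahcy, from 0.76 to 0.71 for Mat1a and from 1.33 to 1.62 for Gnmt, of which Gnmt passed the test with and without it. Over both sexes the 9 differences then ran from 0.71 (Cbs) to 2.03 (Pemt). CV male 1 set much of the male averages. Without it, the log2 difference in males fell below 0 for Bhmt (-0.14), Cbs (-0.23), Cth (-0.25) and Chdh (-0.11), and none of these passed the test either way. The CV males also differed in composition. The share of reads in the abundant loci was 5.39% in CV male 1, 21.4% in CV male 2 and 21.9% in the library labelled CV male 3, and its part in these results was not tested.

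Whether the condition effect differed between the sexes was tested by the interaction. None of the 9 passed, and none of the 11782 genes did (0% called by limma; 1382 genes and 3 members had an unadjusted p under 0.05). edgeR, DESeq2 and limma-voom also called 0 members. The estimates were below 0 for all 9, that is, the log2 difference was larger in females. They were widest for Pemt (-1.37 ± 0.51, 95% interval -2.45 to -0.29, limma adjusted p = 0.417), Cth (-1.34 ± 0.55, -2.50 to -0.18, adjusted p = 0.417) and Cbs (-0.97 ± 0.44, -1.89 to -0.05, adjusted p = 0.424). Without CV male 1, Cth (-1.85, adjusted p = 0.0432) and Cbs (-1.37, adjusted p = 0.0401) passed, and 2.47% of all genes with them. When instead the library labelled CV male 3 was left out, 0 members and 0.034% of all genes passed, all 9 estimates were again below 0, and those of Cth (-1.07, 95% interval -2.25 to 0.10) and Cbs (-0.87, -1.86 to 0.12) had intervals that include 0, whereas that of Pemt did not (-1.46, -2.62 to -0.30). The 9 called members of females and the 2 of males are therefore not shown to differ by sex.

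The sexes were next compared within each condition. In GF livers Bhmt was higher in males by 1.72 ± 0.40 on the log2 scale (limma adjusted p = 0.0407), or 3.30 times (95% interval 1.84 to 5.91), as 1 of 9 members called, against 1.63% of all genes called and 1.23% called higher in males. Every GF male (5569.6 to 7119.8 normalized reads) lay above every GF female (1595 to 2479). Cth had a log2 difference of 1.51 ± 0.39 (adjusted p = 0.0589) and Pemt of 0.95 ± 0.36 (adjusted p = 0.183). All GF males lay above all GF females for 5 of 9 members, against 10.2% of all genes tested, namely for Bhmt and for Ahcy, Bhmt2, Cbs and Cth, of which the last 4 did not pass the test. The Bhmt call was lost without GF male 2, GF male 3, GF female 1, GF female 3, CV male 2 or CV female 3 (1.57 to 1.72, adjusted p from 0.0528 to 0.182). Cth passed without GF female 2, CV male 1 or the library labelled CV male 3 (1.51 to 1.55, adjusted p from 0.0144 to 0.049), and Pemt without GF female 2 (1.31, adjusted p = 0.0414). The share of all genes called was then 6.08% (GF female 2 left out), 2.58% (CV male 1) and 2.29% (library labelled CV male 3). The share of reads in the abundant loci was 41.8 to 51.7% in the GF males and 58.2 to 69.4% in the GF females, and its part in these differences was not tested.

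In CV livers none of the 9 passed the test between the sexes (0.0594% of all genes called by limma; 1 member, Bhmt, with an unadjusted p under 0.05; 0 members by edgeR, DESeq2 or limma-voom). Bhmt was higher in CV males by 0.95 ± 0.40 (adjusted p = 0.921), and by 1.38 ± 0.39 (adjusted p = 0.23) without the library labelled CV male 3. Cbs and Mat1a had log2 differences of -0.61 ± 0.31 and -0.55 ± 0.35, with higher means in females.

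The size of all these differences depended on the scaling of the libraries. When the reads were scaled to those outside the 7 abundant loci, the median log2 difference of all genes over both sexes moved from 0.07 to -0.38, and 3 of the 9 members stayed past the threshold: Pemt (1.62 ± 0.19, limma adjusted p = 8.26e-06), Gnmt (1.12 ± 0.25, adjusted p = 0.00152) and Mat1a (0.55 ± 0.20, adjusted p = 0.0259). At that scaling 59.5% of all genes were called and 18.2% were called higher. The other 6 had log2 differences of 0.18 to 0.47 there, and Cbs and Cth turned to -0.13 and -0.04 in males. When the libraries were scaled to the mean log2 level of the hepatocyte markers, the median of all genes moved to -0.76, and Pemt alone passed over both sexes (1.22 ± 0.16, adjusted p = 3.38e-05, with 7.32% of all genes called higher), in females (1.56 ± 0.23, adjusted p = 1.19e-04, 5.15% called higher) and in males (0.89 ± 0.23, adjusted p = 0.0242, 1.72% called higher). Gnmt then had a difference of 0.73 ± 0.32 (adjusted p = 0.0664), and Ahcy, Bhmt, Bhmt2, Cbs and Chdh lay between -0.21 and -0.16. Scaled to all reads, where the median was 0.62, all 9 passed with differences of 1.20 to 2.64, against 64% of all genes called and 50.3% called higher. Relative to the median of all genes, all 9 members stayed above it over both sexes in each of the 25 alternative fits without a covariate, with the lowest excess at 0.20 for Ahcy and at 1.32 for Pemt. A change of scaling shifts all genes of a library alike, so the fits under other scalings could hardly change this excess.

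**Figure D3:**
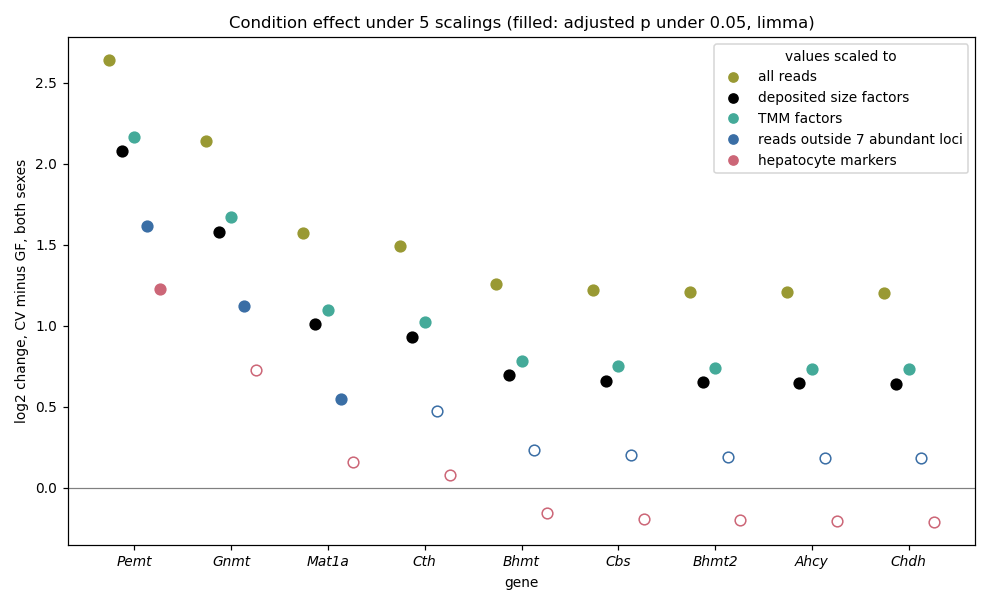
Log2 difference, CV minus GF over both sexes, of each member when the libraries were scaled in 5 ways, with filled points where the adjusted p was under 0.05. All 9 are filled for all reads, deposited factors and TMM factors, 3 when reads in the abundant loci were left out and Pemt alone when scaled to hepatocyte markers, where 5 members fall below 0.

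The condition effect was also estimated with transcript length and GC content taken into account. Pemt and Gnmt have the shortest transcripts of the 9 (1003 and 1035 bases), and Cbs and Chdh the longest (6226 and 5690 bases). After a trend on length and GC content was removed from each library, the log2 difference over both sexes was 1.44 for Pemt (limma adjusted p = 2.09e-05), 1.14 for Cbs, 1.07 for Chdh, 0.94 for Mat1a, 0.93 for Gnmt (adjusted p = 0.00983) and 0.87 for Bhmt. These 6 passed the test, against 56.8% of all genes called and 32.8% called higher, and Cth (0.64, adjusted p = 0.0725), Bhmt2 (0.33, adjusted p = 0.0935) and Ahcy (0.32, adjusted p = 0.106) did not. Pemt thus kept the largest difference, while the order of the others changed.

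**Figure D4:**
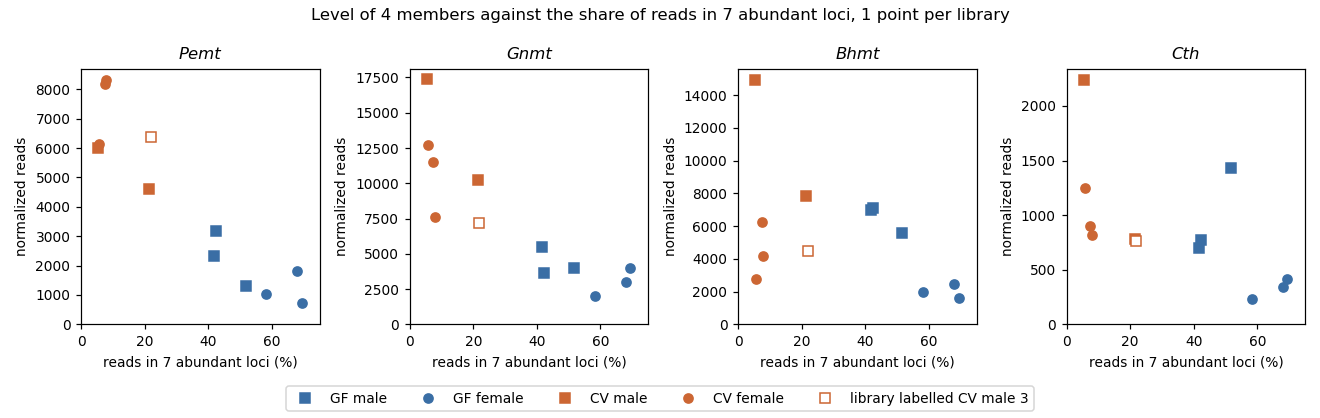
Normalized reads of 4 members against the percentage of a library's reads in 7 abundant loci, with 1 point per liver, colour for condition and shape for labelled sex. GF livers (41.8 to 69.4%) and CV livers (5.39 to 21.9%) do not overlap on the horizontal axis, so share and condition cannot be told apart in these points.

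Ratios between enzymes within a library do not depend on its scaling, and 5 of them were compared by an exact two-sided permutation test within labelled sex (400 relabellings, smallest p 0.005, Benjamini-Hochberg over the 5). Mat1a is the liver form of methionine adenosyltransferase and Mat2a the form of most other cells and of growing liver. The log2 ratio Mat1a/Mat2a was 3.32 ± 0.34 (SD, n = 3) in GF males, 4.39 ± 0.41 in CV males, 3.55 ± 0.30 in GF females and 4.80 ± 0.25 in CV females. It was higher in CV by 1.16 (exact permutation p = 0.005, adjusted p = 0.0125), and the conditions did not overlap in either sex. Mtr, which remethylates homocysteine with folate, is the counterpart of Bhmt. Their log2 ratio Bhmt/Mtr was higher in CV by 1.77 (exact permutation p = 0.005, adjusted p = 0.0125), with means of 7.32 ± 0.25 and 9.01 ± 0.59 in GF and CV males and 5.90 ± 1.2 and 7.77 ± 0.46 in GF and CV females (n = 3 each). Mtr was itself low, with group means of 15.2 to 39.9 normalized reads. Once a trend on length and GC content had been taken out, the Bhmt/Mtr difference was 1.09 (exact permutation, adjusted p = 0.025), and that of Mtr alone was -0.22. Leaving out the library labelled CV male 3 gave a difference of 1.15 for Mat1a/Mat2a and 1.86 for Bhmt/Mtr (exact permutation, adjusted p = 0.0125 for both).

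The 3 ratios among members themselves were not called between the conditions. Bhmt/Bhmt2 differed by 0.04 (exact permutation p = 0.83, adjusted p = 0.83), Cbs/Cth by -0.27 (exact permutation p = 0.16, adjusted p = 0.267) and Gnmt/Pemt by -0.50 (exact permutation p = 0.27, adjusted p = 0.338). None of these was called without the library labelled CV male 3 either (0.19, -0.35 and -0.30). By labelled sex, the log2 ratio Bhmt/Bhmt2 ran from 2.11 to 3.05 in the 6 male-labelled livers and from 0.74 to 2.06 in the 6 females. The lowest male-labelled value was that of the library labelled CV male 3, close to the highest female value, and the other 5 ran from 2.40 to 3.05. The log2 ratio Cbs/Cth ran the other way, from 0.48 to 1.18 in the male-labelled livers, with or without that library (1.17), and from 1.49 to 2.42 in females. These sex differences in the ratios were noticed in the values and were not tested.

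Levels of different members were compared per kilobase of exon, counting every base in an annotated exon of the gene once. This length was 2104 bases for Pemt and 2791 for Cth, against 1003 and 1815 in their longest transcripts, whereas both lengths were 3468 for Mat1a. The order given here therefore holds for this length and could differ with transcript length. The order of the means was the same in both conditions: Gnmt, Mat1a, Pemt, Bhmt, Ahcy, Bhmt2, Cth, Cbs and Chdh. In GF livers it ran from 3074 ± 962 (SD, n = 6) normalized reads per kilobase for Gnmt over 2227 ± 430.5 for Mat1a, 822 ± 431 for Pemt and 743 ± 445 for Bhmt to 55.4 ± 11.9 for Chdh. In CV livers it ran from 9208 ± 3115 for Gnmt over 4592 ± 1276 for Mat1a, 3139 ± 673 for Pemt and 1171 ± 763 for Bhmt to 91.5 ± 36.6 for Chdh. Neighbours in this order mostly overlapped over the 6 livers of a condition. In GF the steps from Mat1a to Pemt, from Ahcy to Bhmt2 and from Cbs to Chdh were free of overlap, and in CV the steps from Ahcy to Bhmt2 and from Cbs to Chdh.

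The members also varied together among mice of the same group. Of the 36 pairs of members, 31 had a positive Pearson correlation of their deviations from the 4 group means over the 12 libraries (lowest -0.34, median 0.53, highest 0.91). All genes of a library share its depth and scaling, so these values are a description. The genes most like each member by this measure were Syt3 (0.96) and Agxt (0.94) for Mat1a, Vrk3 and Cyb5d1 (0.96 each) for Gnmt, and Map2k3 and Shmt2 (0.98 each) for Ahcy. They were Pfkfb3 and Slco1a1 (0.93 each) for Bhmt, Hacd3 and Rmdn3 (0.97 each) for Bhmt2, and Ugt1a1 (0.98) and Itih1 (0.95) for Cbs. For Cth they were Gart (0.97) and Pank2 (0.96), for Pemt Psmb2 (0.99) and Eci1 (0.98), and for Chdh Osbpl9 (0.99) and Tbc1d9b (0.96).

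Around the members, 6 lists of neighbouring genes held 62 genes, of which 61 were in the table by name and 56 had enough reads. Over both sexes 34 of the 56 were higher and 9 lower in CV (limma, background 61.1% called, 32.3% higher and 28.7% lower), with a median of 0.77 against 0.07 for all genes. In males 18 were higher and 5 lower (background 14.1% and 15.4%), and in females 32 and 5 (background 29.8% and 26%).

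The list of transsulfuration and sulfide oxidation had the highest median, 1.80, and all 5 of its genes were higher in CV over both sexes and within each sex. These enzymes act on the sulfur that leaves through Cbs and Cth, the transsulfuration enzymes, which are members and not in this list. Over both sexes Cbs and Cth differed by 0.66 and 0.93, and neither was called in males. Tst, a mitochondrial thiosulfate sulfurtransferase, differed by 1.80 ± 0.21 on the log2 scale (limma adjusted p = 4.43e-06) and Suox, the sulfite oxidase, by 1.80 ± 0.22 (adjusted p = 6.02e-06). The other 3, Sqor, Ethe1 and Mpst, differed by 2.11, 1.65 and 1.19 and were named after their values were seen, to complete the list.

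In the methionine cycle, 2 of 7 genes were higher, 1 lower and 4 not called (median 0.23). Adk, adenosine kinase, which clears the adenosine that Ahcy releases, differed by 0.96 ± 0.20 (limma adjusted p = 5.36e-04) and Mat2b, a regulatory subunit of methionine adenosyltransferase, by 0.77 ± 0.16 (adjusted p = 7.61e-04). Lower was Mtr, the methionine synthase that uses folate (-1.08 ± 0.30, adjusted p = 0.00532). With the trend on length and GC content removed, Mtr was not called (-0.22, adjusted p = 0.561), nor was it when scaled to all reads (-0.55, adjusted p = 0.177).

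Of the 14 choline, betaine and phosphatidylcholine genes tested, 7 were higher in CV and 4 were lower (median 0.46). The higher ones included Sardh, which oxidizes sarcosine, the product of Gnmt (1.93 ± 0.27, limma adjusted p = 2.07e-05), and Aldh7a1, which can oxidize betaine aldehyde, the product of Chdh (1.61 ± 0.24, adjusted p = 3.21e-05). The lower ones included the choline kinases Chka (-1.74 ± 0.25, adjusted p = 2.65e-05) and Chkb (-0.99 ± 0.21, adjusted p = 7.06e-04), which open the route to phosphatidylcholine that does not use Pemt. Chka had group means of 433 ± 244 and 131 ± 30.9 normalized reads in GF and CV males and of 537 ± 150.4 and 139.9 ± 25.1 in GF and CV females (SD, n = 3 each).

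The folate list had 10 higher and 2 lower of 13 tested (median 0.89). Gcsh of the glycine cleavage system differed by 1.80 ± 0.25 (limma adjusted p = 1.52e-05) and Shmt1, a serine hydroxymethyltransferase, by 1.15 ± 0.20 (adjusted p = 1.24e-04), while the folate carrier Slc19a1 differed by -0.89 ± 0.27 (adjusted p = 0.00943) and Ftcd of histidine breakdown by -0.58 ± 0.23 (adjusted p = 0.0369). The Ftcd call was lost without any of 8 libraries (-0.57 to -0.48, adjusted p from 0.0674 to 0.0954) and with TMM factors (-0.49, adjusted p = 0.0803).

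Among other S-adenosylmethionine-dependent methyltransferases, 5 of 8 were higher and 2 lower (median 1.02). As3mt, which methylates arsenic, differed by 1.24 ± 0.20 (limma adjusted p = 6.04e-05) and Gamt, which makes creatine, by 1.47 ± 0.24 (adjusted p = 7.43e-05). The DNA methyltransferases Dnmt1 (-0.94 ± 0.19, adjusted p = 4.83e-04) and Dnmt3a (-0.86 ± 0.19, adjusted p = 8.85e-04) were lower. After removal of the length and GC trend, Dnmt3a had a log2 difference of 0.17. Of the 9 polyamine and methionine salvage genes, 5 were higher and 0 lower (median 0.63), among them Adi1 of methionine salvage (1.65 ± 0.25, adjusted p = 4.19e-05) and Odc1, which opens polyamine synthesis (1.26 ± 0.20, adjusted p = 6.09e-05).

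The other lists moved with the scaling as the members did. Scaled to all reads, Chkb (-0.43, limma adjusted p = 0.152), Dnmt1 (-0.39, adjusted p = 0.172), Dnmt3a (-0.30, adjusted p = 0.238), Slc19a1 (-0.33, adjusted p = 0.369) and Ftcd (-0.02, adjusted p = 0.956) were not called. Scaled to hepatocyte markers, Adk (0.11, adjusted p = 0.652), Shmt1 (0.30, adjusted p = 0.384), As3mt (0.40, adjusted p = 0.179) and Odc1 (0.41, adjusted p = 0.246) were not called. Of the 56 genes, 43 were called as deposited and 42 when scaled to all reads, against 61.1% and 64% of all genes tested. When scaled to reads outside the abundant loci 36 were called, against 59.5%, and when scaled to hepatocyte markers 24, against 57.1%.

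**Figure D5:**
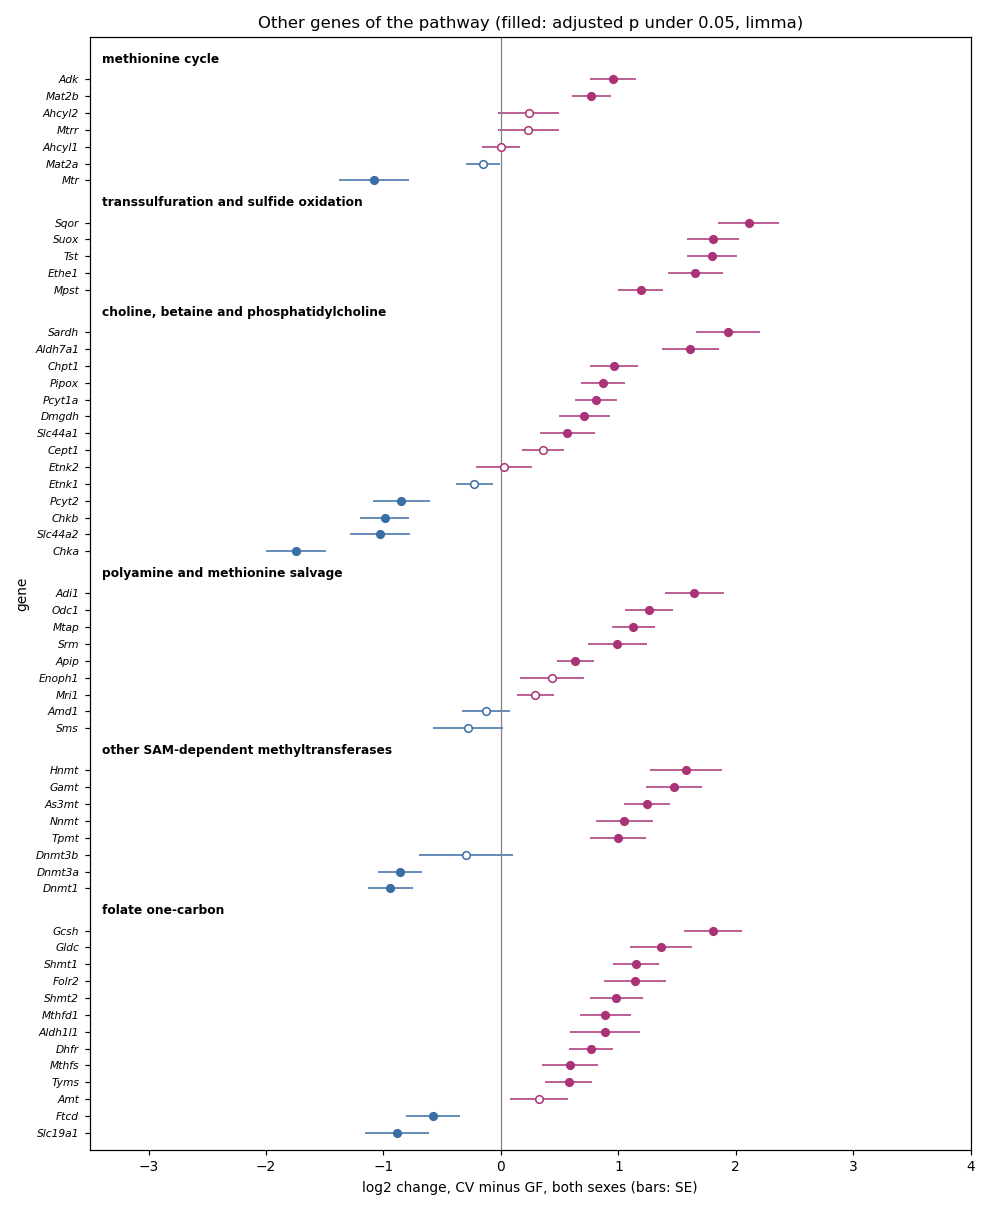
Log2 difference, CV minus GF over both sexes, with its SE for the 56 other pathway genes tested, grouped by list and ordered by size within each, with filled points at an adjusted p under 0.05. All 5 genes of the transsulfuration and sulfide oxidation list, which does not hold Cbs or Cth, lie between 1.19 and 2.11. The choline kinases, Mtr, Dnmt1 and Dnmt3a lie at or below -0.86.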

How the data were processed

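Liver RNA of 12 mice was measured by sequencing, per the labels with a stranded mRNA kit. The deposited unit is a normalized signal per gene, for which the authors divided gene counts by 1 size factor per library. The submitters' processing notes name HTSeq 0.6.1p1, DESeq2 and build GRCm38, whereas the aligner and annotation are not given in the sources used here. Whole reads were recovered from the values (100% of values whole within 0.01 reads), and the step matched the median-of-ratios size factor over 12512 genes with reads in all 12 libraries. The paper named for the series describes brain tissue, so no method was taken from it.

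Groups came from the sample titles. limma 3.58.1 in R 4.3.3 was fitted to log2(value + 1) for 11782 genes with a mean value of at least 10, with 4 group means, a variance trend and Benjamini-Hochberg adjustment (threshold 0.05). Fold changes on this scale understate those of low genes. The p-values measure the spread between livers of 3 mice per group. Ratios were tested by exact permutation. The members and lists were chosen with earlier results of these data known. Of each list, the 2 genes with the smallest adjusted p in each direction were named, and for likeness the 2 genes with the highest correlation to each member. Of the lists, 2 genes are not reported here and enter no list count. Prmt1 was not matched by name, and Sqor was matched as a synonym of Sqrdl. GENCODE listed 40254 of the identifiers (97.9%).

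Alternatives were edgeR 4.0.16 and DESeq2 1.42.0 on the recovered reads, limma-voom, pseudocounts of 0.5 and 5, other minimum values, other scalings, read shares as covariates, a trend on length and GC content, a replicate block and each library left out. Scaling to hepatocyte markers was chosen after seeing the data. Deviations of same-numbered livers from their group means had correlations of 0.12 to 0.19 between CV males and females. They were 0.06, 0.40 and 0.07 between GF males and females and -0.23 to 0.02 between GF and CV livers of a sex. Livers of unlike number were not compared, and whether a number marks a litter or cage was not given, so these values do not decide on pairing. In simulated counts of 11782 genes, the test over both sexes recovered 45% of genes changed by 1 and 100% of those changed by 2 on the log2 scale. The simulation changed 100 genes of each size, drew genes independently and gave all the same relative spread beyond counting error. In the data 61.1% of all genes were called, so these shares do not give the part of true changes recovered here.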

Additional observations from a re-analysis of the deposited data

Results flagged for a closer look

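For each member, the highest and lowest of the 6 libraries of each condition were compared with the rest, 18 sets of values in all. In these sets 3 values stood apart, all in CV male 1 or GF male 1. Chance alone sets apart about 1 in 20 sets of like and independent values. Each set here mixes the sexes and the members vary together, so this rate is no measure of chance here. CV male 1 had 4749.6 normalized reads of Ahcy, a gap to the next CV library of 0.849 of the range, and 2242 of Cth, a gap of 0.67 of the range. GF male 1 had 483 normalized reads of Chdh, a gap of 0.639 of the range of the GF libraries. CV male 1 also had the lowest share of reads in the abundant loci (5.39%), and the part of that share in its levels was not tested. Without CV male 1 the log2 difference in males was -0.25 for Cth and -0.11 for Chdh.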

How the results depend on the processing

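Over both sexes, 9 of 9 members were called with edgeR, DESeq2, limma-voom, either pseudocount, a minimum mean value of 50, TMM factors, all reads or the replicate block, 8 without a filter on low values, 6 after removal of the length and GC trend and 7 to 9 when each library was left out. Of all genes, 60.8% were called with edgeR or limma-voom, 36.8% with DESeq2 and 67.8% with the minimum mean value of 50. The share was 60.9% and 61.4% with pseudocounts of 0.5 and 5, 61.4% with TMM factors, 64% with all reads and 61.3% with the block. It was 34.8% without the filter, 56.8% with the trend removed and 56 to 63.2% with a library left out. Fewer members were called outside the abundant loci (3, with 59.5% of all genes called) and when scaled to hepatocyte markers (1, with 57.1%). With either read share as covariate 0 were called, where 0% (mitochondrial rRNA) and 0.0594% (abundant loci) of all genes were called. The shares differ so strongly between the groups (93.5% of the variance for mitochondrial rRNA and 95.3% for the abundant loci) that share and condition cannot be told apart in such a fit. In males the count of 2 became 4 when scaled to all reads, 1 with the length and GC trend removed, 1 when scaled to hepatocyte markers, 0 with either covariate and 0 (without GF male 1) to 3 with a library left out. Of all genes, 30.7% were called in males with all reads, 25.2% with the trend removed and 14.1% with hepatocyte markers. The share was 0.0255% with the mitochondrial covariate and 0.11% with the abundant-locus covariate. It was 13.6 to 33% with a library left out, lowest without GF male 1. In females the count of 9 became 8 with edgeR, 7 with the length and GC trend removed, 6 without a filter on low values, 3 outside the abundant loci, 1 with hepatocyte markers and 0 with either covariate, and was 6 to 9 with a library left out. The shares of all genes called in females were 54.6% with edgeR, 50.4% with the trend removed and 30.4% without a filter. They were 55.2% outside the abundant loci, 55% with hepatocyte markers, 0% with either covariate and 46.8 to 59.1% with a library left out. The interaction count was 0 to 2 with a library left out, where 0 to 2.47% of all genes were called. Between GF males and females, the count of 1 became 2 with DESeq2, 3 with all reads, 2 with the replicate block, 0 with edgeR, without a filter, outside the abundant loci, with either covariate or with hepatocyte markers, and 0 to 3 with a library left out. Of all genes, 1.95% were then called with DESeq2, 11.8% with all reads, 2.38% with the replicate block and 1.12% with edgeR. The share was 0.758% without a filter, 1.2% outside the abundant loci and 0.62% with hepatocyte markers. It was 0.034% with the mitochondrial covariate, 0.0764% with the abundant-locus covariate and 0.416 to 6.08% with a library left out. Same-numbered GF and CV livers were not shown to be paired, and the replicate block changed no other count (Cth passed between GF males and females under it, adjusted p = 0.0413 by limma). Of the 56 other genes, 43 called became 0 with either covariate and 24 with hepatocyte markers, where 57.1% of all genes were called.

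Where a direction turned, the cause was not tested. With the mitochondrial rRNA share as covariate, the difference over both sexes was -0.33 for Gnmt, -0.87 for Ahcy, -0.92 for Bhmt, -0.39 for Bhmt2, -0.82 for Cbs, -0.89 for Cth and -1.04 for Chdh. In males it was -0.37 for Ahcy, -0.66 for Bhmt, -0.27 for Bhmt2, -0.72 for Cbs, -0.83 for Cth and -0.63 for Chdh. In females it was -0.85 for Gnmt, -1.37 for Ahcy, -1.18 for Bhmt, -0.51 for Bhmt2, -0.93 for Cbs, -0.95 for Cth and -1.46 for Chdh. The interaction became 0.12 for Cth and 0.21 for Cbs. When instead the covariate was the abundant-locus share, the values over both sexes, in males and in females were -0.37, -0.14 and -0.61 for Ahcy, -1.53, -1.17 and -1.89 for Bhmt, -0.80, -0.61 and -0.99 for Bhmt2, -0.75, -0.77 and -0.74 for Cbs and -0.99, -0.71 and -1.28 for Chdh, and Cth was -0.32 in males. Scaled to hepatocyte markers, they were -0.16, -0.20 and -0.12 for Bhmt, -0.20, -0.15 and -0.26 for Bhmt2, -0.19, -0.33 and -0.0533 for Cbs and -0.21, -0.12 and -0.30 for Chdh, while Ahcy was -0.21 over both sexes and -0.45 in females and Cth -0.24 in males. Outside the abundant loci, Cbs was -0.13 and Cth -0.0399 in males. With each library left out, the male differences ran from -0.14 to 0.73 for Bhmt, -0.23 to 0.46 for Cbs, -0.25 to 0.58 for Cth and -0.11 to 0.65 for Chdh, each lowest without CV male 1. Of the other genes, the abundant share turned As3mt (-0.32), Dnmt3a (0.75), Adi1 (-0.16), Odc1 (-0.91), Sardh (-0.30), Aldh7a1 (-0.30) and Adk (-0.20), the mitochondrial share Shmt1 (-0.52), Odc1 (-0.43), Sardh (-0.63) and Aldh7a1 (-0.12), the length and GC trend Dnmt3a (0.17) and hepatocyte markers Mat2b (-0.0791). The ratio Bhmt/Bhmt2 ran from -0.10 to 0.22 with a library left out, and Cbs/Cth was 0.51 with the trend removed. In all, 773 of the member results under an alternative kept their direction and side of the threshold, 90 fell short of it, 14 passed it and 59 turned.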

Other observations

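Among the markers of other liver cells, which the comparisons above do not cover, the macrophage genes Vsig4 (1.18 ± 0.19, limma adjusted p = 6.51e-05), Cd5l (1.03 ± 0.19, adjusted p = 2.61e-04) and Adgre1 (0.70 ± 0.24, adjusted p = 0.0195) were higher in CV livers over both sexes, as 3 of 7 listed, while Clec4f, a defining gene of Kupffer cells, had a log2 difference of 0.23 ± 0.18 (adjusted p = 0.268). Of the remaining macrophage genes, Marco (0.84) and Csf1r (0.34) lay above 0 and Timd4 (-0.26) below, with none called. The sinusoidal scavenger receptors Stab2 (-1.87 ± 0.28, adjusted p = 4.05e-05) and Stab1 (-1.73 ± 0.33, adjusted p = 3.20e-04) were lower, as 2 of 6 endothelial markers. Pecam1 (-0.38) and Kdr (-0.34) lay below 0 and Clec4g (0.32) and Lyve1 (0.07) above, also not called. Over all genes tested, 32.3% were called higher and 28.7% lower. Of 6 stellate cell markers, Dcn was higher (0.61 ± 0.22, adjusted p = 0.0233) and Reln lower (-0.52 ± 0.19, adjusted p = 0.0231), and none of 5 cholangiocyte markers was called. Among hepatocyte markers, Cyp2e1 (1.58 ± 0.28, adjusted p = 1.61e-04), Apoa1, Fgb, Ttr and Alb were higher, whereas Cps1, the entry enzyme of the urea cycle, had a log2 difference of -0.34 ± 0.27 (adjusted p = 0.295). These genes were singled out after their values were seen.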
